A study of Mus musculus with 8 samples.

Results

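Differentiated alveolar cells, the milk-producing cells of the mammary gland, were compared between lactation and gestation. They were the cells that the deposited annotation assigns to cluster C9 in the 2 lactation libraries (42 cells in L1 and 47 in L2) and to cluster C8 in the 2 gestation libraries (1926 cells in G1 and 1818 in G2). Together they were 3833 of the 25010 cells that pass the annotation's quality filter over all libraries of the series. No C9 cell lay outside the lactation libraries, and the 3 C8 cells outside the gestation libraries were left out. Each library came from 1 C57BL/6N mouse, killed at day 14.5 of gestation (G) or day 6 of lactation (L). The labels name no transgene, mutation or drug for any of these mice, and they do not give the ages of the G and L mice. Live EpCAM+ epithelial cells were sorted, with CD31, CD45 and Ter119 positive cells gated out, and their polyadenylated RNA was sequenced by droplet capture. The comparison asks what changes in alveolar cells that already make milk proteins in gestation once milk is secreted. Because the clusters were drawn from the same transcripts, the stage and the cluster cannot be told apart, and with 2 mice a group an exact permutation test of a single value cannot give a p below 0.33.

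In gestation, prolactin acting through its receptor, JAK2 and STAT5 drives alveolar precursors to divide, polarise and begin to transcribe casein genes. After birth, when progesterone has fallen, the tight junctions close and the cell exports casein micelles, whey proteins and lactose by exocytosis, ions and water across its apical membrane, and fat as droplets wrapped in that membrane. Endoplasmic reticulum, fatty acid synthesis and calcium pumps expand to feed this export.

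The summed counts of unique molecular identifiers (UMIs, 1 for each captured RNA molecule) were 26454518 and 21959199 in the G mice and 572463 and 741979 in the L mice, so that the L sums were the shallower side of every comparison. Median UMIs per cell were 10900.5 and 8676.5 in G and 11602 and 16271 in L. The L cells were large for their libraries, at 3.08 and 3.82 times the library median, against 1.13 and 1.11 times in G. These library medians differ in make-up. Basal cells were 4637 of 5736 and 3104 of 3583 passing L cells, with medians of 3701 and 4148 UMIs. In G the differentiated cells themselves were 1926 of 2821 and 1818 of 3005, and basal cells had medians of 6201 and 6060. The L differentiated cells nevertheless held fewer detected genes, with medians of 1895 and 2401 against 2927 and 2600.5. The median share of mitochondrial UMIs was 0.814% and 0.757% in G and 0.627% and 0.6% in L. UMIs were counted from transcript ends, so levels do not depend on transcript length.

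Milk protein genes took a far larger share of the RNA in L cells than in G cells. The 8 milk protein genes (Csn1s1, Csn1s2a, Csn1s2b, Csn2, Csn3, Wap, Lalba and Glycam1) took 9.67% of the summed UMIs in G1 (95% exact binomial interval 9.65% to 9.68%, counting error only) and 5.74% in G2 (5.73% to 5.75%). In L1 they took 44.8% (44.6% to 44.9%) and in L2 41.7% (41.6% to 41.8%). The G and L mice did not overlap, and the means differed by 35.5 percentage points. Single cells spread widely around these values, from 0.203% to 33.8% in G1 and from 0.121% to 24.2% in G2, and from 12.2% to 76% in L1 and from 7.46% to 75.3% in L2. The median L cell held 3616 milk protein UMIs in L1 and 4065 in L2, against 1007.5 and 459.5 in G, beside 6326.5 and 9455 other UMIs against 9731.5 and 8048.5. Basal cells of the same libraries, which make no milk, had at most 0.212% of their UMIs in these genes.

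**Figure D1:**
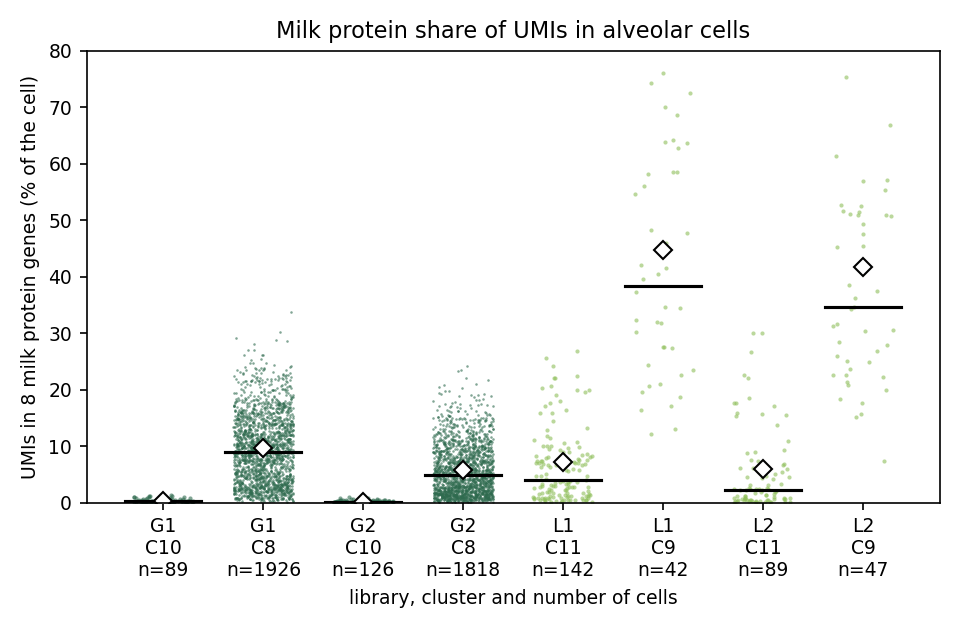
Share of each cell's UMIs in the 8 milk protein genes (y axis, percent) for progenitor (C10, C11) and differentiated (C8, C9) alveolar cells of each library (x axis, with the number of cells). Points are cells, bars their median and diamonds the share of the summed UMIs. The C9 sums lie at 44.8% and 41.7%, above the C8 sums at 9.67% and 5.74% and the C11 sums at 7.21% and 5.92%.

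Because milk protein RNA took so much of the L libraries, the scaling decides how other genes read. edgeR's quasi-likelihood test with trimmed-mean (TMM) scaling covered 11858 genes, of which 1098 were higher in L (9.26%) and 1086 lower (9.16%) at an adjusted p under 0.05. The median gene changed by −0.16 on the log2 scale. With library totals alone and no TMM, the median gene was at −1.06 and the counts became 556 higher and 5568 lower of the same 11858 genes. Every list count or median given below with library totals only is to be read beside these values, because that scaling lowers most genes. With the milk protein genes left out of the totals, the counts were 1101 higher and 1085 lower with TMM, where the median stayed at −0.16, and 922 higher and 1785 lower without it. DESeq2 called 1424 higher and 869 lower. Both counts also rested on the G mice, with 768 higher and 377 lower without G1 and 615 higher and 286 lower without G2. All log2 fold changes below are L over G with TMM, and levels are CPM, the UMIs of a gene scaled to a total of 1000000. The total is that of the UMIs outside the 8 milk protein genes, except that milk protein genes are given in CPM of all UMIs.

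All 8 milk protein genes rose, with a median log2 fold change of 3.28. The major caseins Csn1s1 and Csn2 were already abundant in gestation and had the smallest rises of the 8. Csn2 (beta-casein, chr5:87692624-87699630, minus strand) stood at 31078 and 20282 CPM of all UMIs in G and 96913 and 80191 in L (log2 fold change 2.67 ± 0.28 SE, edgeR adjusted p = 4.31e-05). Csn1s2a, another casein, was the most abundant, at 39297 and 21270 in G and 143957 and 123645 in L. The largest rises were those of Csn1s2b, Wap and Lalba, which were low in gestation. Csn1s2b went from 21.7 and 11.9 CPM in G to 27852 and 20487 in L (11.37 ± 0.44, adjusted p = 1.61e-08). Wap (whey acidic protein, chr11:6635482-6638637, minus strand) went from 410 and 87.7 to 91754 and 101975 (9.48 ± 0.72, adjusted p = 3.5e-06), and it was spread unevenly between the G mice. Lalba, the alpha-lactalbumin that turns a galactosyltransferase into lactose synthase, went from 28.8 and 16.2 to 2161 and 3154 (7.78 ± 0.39). Glycam1 was the least even, at 5731 and 2431 in G and 4559 and 28877 in L on the CPM scale of all UMIs, where L1 lay below G1. Its fold change of 2.95 (adjusted p = 0.00967) fell to 0.97 without L2 (adjusted p = 0.0974).

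The promoters of 6 of these 8 genes were present in the RefSeq table of promoters (GRCm38.p6). The pattern TTCNNNGAA, which reads the same on both strands and is the core that STAT5 is known to bind, was searched in the 250 bases before each start. It was found in 3 of the 6, against 7.02% of all 32851 promoters in the table, and in none of the 12 promoters found for other secreted milk proteins. The 3 holders and Wap are shown because they set a holder beside a gene that rose far more without the pattern. Each runs to the base before the RefSeq start, with the pattern in capitals. These starts can differ from the ends of the GENCODE genes whose positions are given above. The Csn2 window, with its pattern, lies partly inside the GENCODE span of that gene.
Csn1s1 (chr5:87665958-87666207, plus strand): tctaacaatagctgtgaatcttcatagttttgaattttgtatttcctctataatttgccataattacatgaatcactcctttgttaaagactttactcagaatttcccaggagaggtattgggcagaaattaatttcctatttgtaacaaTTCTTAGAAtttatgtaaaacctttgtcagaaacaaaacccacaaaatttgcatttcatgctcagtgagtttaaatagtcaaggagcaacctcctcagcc
Csn2 (chr5:87699426-87699675, minus strand): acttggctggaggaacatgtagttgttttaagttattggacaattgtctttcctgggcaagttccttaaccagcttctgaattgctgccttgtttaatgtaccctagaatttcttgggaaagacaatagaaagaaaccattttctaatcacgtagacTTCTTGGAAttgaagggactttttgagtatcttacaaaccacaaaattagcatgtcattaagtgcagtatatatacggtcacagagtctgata
Glycam1 (chr15:103565082-103565331, minus strand): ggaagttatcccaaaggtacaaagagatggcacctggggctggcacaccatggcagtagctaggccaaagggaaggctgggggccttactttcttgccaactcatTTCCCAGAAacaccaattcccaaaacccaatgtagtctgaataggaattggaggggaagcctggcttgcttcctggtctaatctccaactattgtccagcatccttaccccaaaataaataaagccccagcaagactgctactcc
Wap (chr11:6638650-6638899, minus strand): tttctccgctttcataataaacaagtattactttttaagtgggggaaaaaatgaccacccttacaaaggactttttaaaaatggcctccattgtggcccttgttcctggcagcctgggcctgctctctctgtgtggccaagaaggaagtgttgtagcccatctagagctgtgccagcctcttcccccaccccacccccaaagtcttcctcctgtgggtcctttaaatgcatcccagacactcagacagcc
The pattern starts 100 bases before the start of Csn1s1, 93 before that of Csn2 and 145 before that of Glycam1. Wap, Lalba and Csn1s2a do not hold these letters in this window, which says nothing of STAT5 at other distances. The holders Csn1s1, Csn2 and Glycam1 changed by 2.70, 2.67 and 2.95 on the log2 scale. Without the pattern, Wap and Lalba changed by 9.48 and 7.78, but Csn1s2a by 3.03, close to the holders.

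All 12 tested genes for other milk and secreted proteins rose as well, with a median log2 fold change of 4.47. Most are iron-binding, lipid-binding or antibacterial proteins of milk. Ltf (lactoferrin) stood at 36.1 and 19.2 in G and 5230 and 5809 in L (7.84 ± 0.37, adjusted p = 6.99e-08). Spp1 (osteopontin) stood at 122 and 29.6 in G and reached 26683 and 37230 in L. Trf (transferrin), already present at 1839 and 1596 in G, reached 19104 and 20753. Cel, the bile salt-stimulated lipase that helps the suckling digest fat, was at 35.1 and 24.3 in G and 575 and 800 in L. Folr1, a folate-binding protein, was at 206 and 147 in G and 1641 and 1337 in L, and Lcn2, which binds bacterial siderophores, at 584 and 536 in G and 7601 and 10233 in L. For all 6 of these genes both L mice lay above both G mice, a separation in either direction that 67.9% of all tested genes showed.

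**Figure D2:**
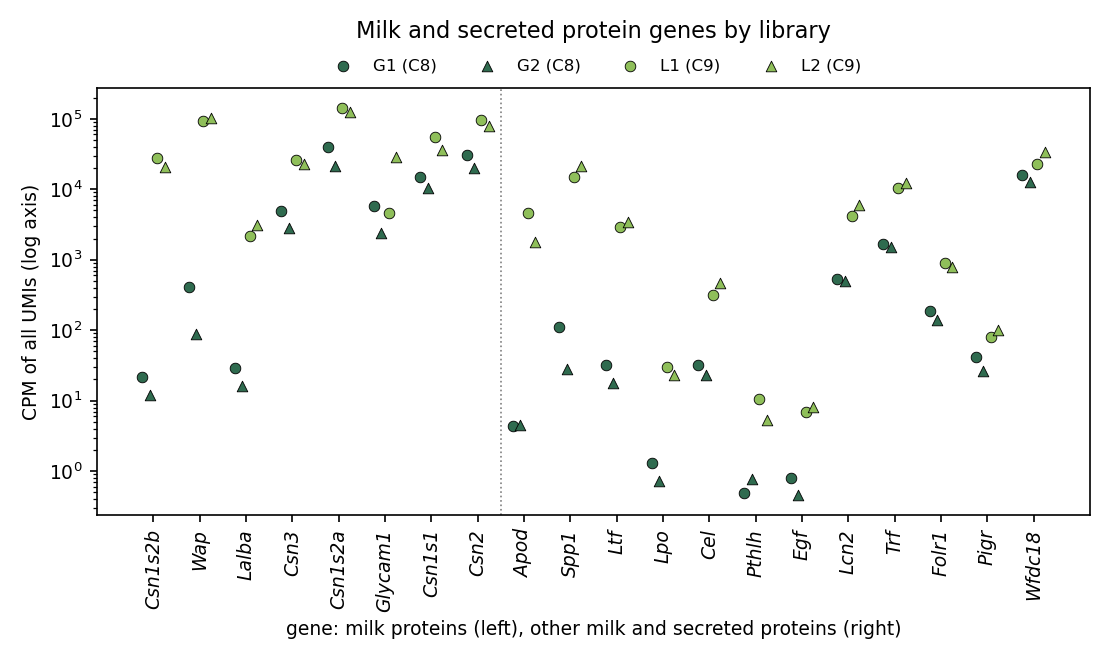
CPM of all UMIs (y axis, log scale) for each milk protein gene (left of the dotted line) and each other milk and secreted protein gene (right), in the 2 G (C8) and 2 L (C9) libraries. Csn1s2b, Wap and Lalba are separated by several powers of 10, whereas the L1 point of Glycam1 lies below its G1 point (4559 against 5731).

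Genes with the largest rises were mainly ones almost absent from gestation cells. Pip, the prolactin-inducible protein (chr6:41847535-41852065), had 1 UMI in the G sums and 2069 in the L sums, at levels of 3393 and 2303 in L. The ratio of its counts per UMI outside milk was 123243, with a 95% interval of 22095 to 4870143 for counting error alone. Apod, a lipocalin that carries small lipids, went from 4.77 and 4.73 to 8259 and 3087 (10.38 ± 0.48). The acid glycoprotein Orm1, an acute-phase protein, went from 0.167 and 0 to 582 and 909, and Orm2 from 0 in both G mice to 22.1 and 171. The rise of Orm2 was at least 1608-fold against a floor of 3 counts over the G group, and without L2 it had too few counts to be tested. D730048I06Rik (427 and 4.63 in L) and Ccl28, a mucosal chemokine (47.4 and 4.63), had 3 and 1 UMIs in the G sums and lay mostly in L1. Their count ratios were 2720 (911 to 13353) and 1013 (159 to 42320). Neither could be tested without L1, and Ccl28 missed the threshold without G1 (adjusted p = 0.0969) or G2 (adjusted p = 0.148). Wfdc17, Saa1 and Saa2 complete the genes of this size and were uneven between the L mice, as given below with the acute-phase genes.

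These high values were not spread evenly over the L cells. The 3 cells with the most UMIs of a gene held 63.9% of the Pip UMIs in L1 and 73.2% in L2, and 32.5% and 72.3% of those of Apod. For Csn2 the same share was 24.4% and 22.7%, and for Wap 35.1% and 31.1%. For Csn1s2b it was 43.6% and 57.6%, though 85.7% and 93.6% of the L cells held at least 1 of its UMIs. In L1 it was 94.8% for D730048I06Rik and 100% for the 11 UMIs of Saa2.

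Lactose synthesis showed few changes past the test. Of 11 tested genes 4 were higher and none lower, and with library totals only 1 was higher and 3 lower and the list's median of 0.47 became −0.42. B4galt1, the galactosyltransferase that pairs with alpha-lactalbumin, was at 89.8 and 65.3 in G and 443 and 335 in L (2.51 ± 0.20, adjusted p = 4.9e-06). Hk2, a hexokinase, was at 41.3 and 33.9 in G and 79 and 62.4 in L. Slc2a1, the GLUT1 glucose transporter, was at 57.4 and 68.3 in G and 69.6 and 160 in L, and its value rested on L2 (0.24 without it, adjusted p = 0.688).

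Fatty acid synthesis rose broadly. Of 17 tested genes 15 were higher and none lower, with a median of 1.63, and 12 stayed higher with library totals only. Fasn (fatty acid synthase) was at 72.4 and 44.4 in G and 538 and 252 in L (2.90 ± 0.29, adjusted p = 3.8e-05). Scd1, the desaturase that makes monounsaturated fatty acids, was at 466 and 465 in G and 2156 and 2736 in L. Slc25a1, which exports citrate from mitochondria as the carbon source, was at 27.3 and 21.4 in G and 168 and 132 in L, and Acaca (acetyl-CoA carboxylase) at 42.2 and 28.1 in G and 187 and 120 in L. Olah, the thioesterase that ends chains at medium length in milk fat, was at 139 and 90.8 in G and 651 and 291 in L (2.19 ± 0.29). Thrsp was at 474 and 228 in G and 866 and 955 in L, with a log2 fold change of 1.57 that became 2.40 without G1. Srebf1, the transcription factor of lipid synthesis, rose by 1.01, but not past the test without L2 (0.53, adjusted p = 0.171).

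Genes for fat droplets and their secretion rose in 10 of 15 cases and fell in none, with a median of 1.74, or rose in 7 and fell in 1 with library totals only. The largest of these rises was that of Cidea, a droplet-coating protein needed for milk fat, at 6.65 and 8.41 in G and 2017 and 1221 in L (7.92 ± 0.30, adjusted p = 1.49e-08). Btn1a1 and Xdh, partners in wrapping the droplet in apical membrane, had levels of 127 and 87.9 in G and 1091 and 907 in L, and of 103 and 77.6 in G and 522 and 386 in L. Mfge8, a milk fat globule protein, was at 203 and 211 in G and 2277 and 2999 in L, and the membrane mucin Muc1 at 52.8 and 46.4 in G and 269 and 240 in L. Others did not pass the test. Plin2, the main droplet coat, was already at 1173 and 1107 in G and stood at 1227 and 1804 in L (0.62 ± 0.24, adjusted p = 0.0912), and it passed the test without L1 (0.93, adjusted p = 0.00104), at equal depth (0.91, adjusted p = 0.0228), at equal cell number (0.88, adjusted p = 0.0309), with other filters, with the library profile subtracted and with the replicate number as a block. Muc15 stood at 2235 and 1934 in G and 2160 and 1586 in L (0.03 ± 0.21, adjusted p = 0.942), and with library totals only its value was −0.86.

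Among 12 tested genes of fatty acid uptake and activation 6 were higher and 1 lower, or 5 and 3 with library totals only. Lpl, which frees fatty acids from blood lipoproteins, was at 289 and 191 in G and 781 and 673 in L (1.79 ± 0.22). Cd36, which carries them across the membrane, was at 271 and 171 in G and 898 and 546 in L, and Fabp3, which binds them in the cytosol, at 857 and 319 in G and 5372 and 4757 in L. The acyl-CoA synthetases went opposite ways. Acsl1 was at 176 and 127 in G and 424 and 319 in L, whereas Acsl3 was at 190 and 213 in G and 41.1 and 57.8 in L (−1.79 ± 0.24, adjusted p = 0.000293). In cholesterol synthesis 5 of 21 tested genes were higher and none lower, and 3 were higher without G2. With library totals only 2 were higher and 3 lower, and the median of 0.82 became −0.07. The largest rises past the test there were those of Msmo1 (23.2 and 17 in G, 79 and 78.6 in L) and Fdps (93.5 and 74.1 in G, 247 and 190 in L). Cholesterol genes were higher in L in basal cells too, where 16 of 21 passed the test, against 24.1% of all genes tested there.

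The transport of calcium, phosphate and water changed in the same cells. Of 20 tested genes for ions, water and calcium 9 were higher and 1 lower, with a median of 1.14. There were 6 higher when either G mouse was left out and 3 lower without L1, and 7 higher and 7 lower with library totals only, where the median was 0.24. Atp2b2, the plasma membrane pump that moves calcium into milk, was at 0.209 and 0 in G and 50.6 and 23.1 in L (8.36 ± 0.80, adjusted p = 2.43e-05). Atp2c2 and Atp2c1, the pumps that load calcium into the Golgi, differed in size. Atp2c2 was at 10.6 and 6.04 in G and 108 and 90.2 in L, and Atp2c1 at 50.2 and 45.9 in G and 94.9 and 118 in L. Orai1, the channel that lets calcium in, was at 51.3 and 52.1 in G and 332 and 160 in L. Slc34a2, a phosphate transporter, was at 3.18 and 1.4 in G and 215 and 109 in L (6.25 ± 0.39), and the water channel Aqp5 at 32.8 and 32.3 in G and 199 and 171 in L. Car2, a carbonic anhydrase, was the gene called lower with TMM in all mice, at 383 and 340 in G and 209 and 109 in L (−1.04), but not past the test without G1 (adjusted p = 0.117) or G2 (adjusted p = 0.0512).

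Junction and adhesion genes were lower more often than higher, with 1 of 14 tested genes higher and 4 lower and a median of −0.35. The lower count was 11 with library totals only and 2 without G1 or G2. Cldn8, a barrier-forming claudin, was at 54.5 and 37.9 in G and 215 and 169 in L (2.23 ± 0.22). Cdh1, the E-cadherin of epithelial junctions, was at 183 and 204 in G and 53.8 and 55.5 in L (−1.62 ± 0.22, adjusted p = 0.000319). Cldn1 was at 61.1 and 81.5 in G and 25.3 and 11.6 in L, and its call was lost without L2 (−1.40, adjusted p = 0.0702). Tjp1, a scaffold protein of tight junctions, was at 74.9 and 87.6 in G and 31.6 and 30.1 in L (−1.20), and it did not pass the test without G1 (adjusted p = 0.0588) or G2 (adjusted p = 0.167).

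The secretory pathway showed a moderate rise of part of its genes. Of 28 tested genes for translocation into the endoplasmic reticulum and folding 10 were higher and none lower, a count that fell to 5 without G2, and with library totals only 1 was higher and 10 lower and the median of 0.50 became −0.40. Ssr4, a subunit of the translocon complex, was at 672 and 576 in G and 1360 and 1092 in L (1.16 ± 0.19), and the chaperone cofactor Sdf2l1 at 49.6 and 42 in G and 130 and 150 in L (1.82 ± 0.20). In the unfolded protein response 6 of 12 genes were higher and none lower, with 3 higher without L2 and 2 higher and 2 lower with library totals only. Its factor Xbp1, which expands the secretory apparatus, was at 198 and 177 in G and 809 and 622 in L (2.12 ± 0.18, adjusted p = 1.02e-05). Atf4, of the same list, was at 426 and 446 in G and 335 and 352 in L (−0.14, adjusted p = 0.624). Between endoplasmic reticulum and Golgi 6 of 23 genes were higher and 2 lower, with 1 higher and 13 lower with library totals only, where the median of 0.38 became −0.52. The higher ones included the cargo receptors Surf4 (112 and 95.7 in G, 240 and 222 in L) and Tmed3 (193 and 168 in G, 408 and 368 in L). The lower ones, the coat subunits Copb1 and Copb2, missed the test without G1 (adjusted p = 0.0538 and 0.176) or G2 (adjusted p = 0.0816 and 0.285), and Copb2 also without L2 (adjusted p = 0.107).

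Translation factors went the other way, with 11 of 20 tested genes lower, 1 higher and a median of −0.64. Only 1 was lower without G2 and 3 without G1, and 19 with library totals only. Eif3e, a subunit of the initiation factor eIF3, was at 426 and 459 in G and 145 and 176 in L (−1.25 ± 0.20, adjusted p = 0.0012). The gene that rose was Eif4ebp1, a repressor of cap-dependent initiation, at 133 and 141 in G and 202 and 213 in L (0.80), and its value became −0.10 with library totals only. In glycolysis 5 of 13 genes were higher and none lower, led by Aldoc (134 and 143 in G, 500 and 423 in L, 1.93 ± 0.16), with 1 higher and 5 lower with library totals only, where the list median of 0.47 became −0.43. Of 14 tested amino acid transporters 3 were higher and 1 lower, or 0 and 4 with library totals only. The heavy and light chains of the large neutral amino acid carrier, Slc3a2 (152 and 188 in G, 304 and 261 in L) and Slc7a5 (31.5 and 29.5 in G, 63.2 and 64.8 in L), were both among the higher ones, with Slc1a4 (13.7 and 14.4 in G, 31.6 and 41.6 in L), which missed the test without L2 (adjusted p = 0.0933). Slc38a1, the lower one, had 3 UMIs in the L sums, a ratio of G over L of 6.3 (2.15 to 30.6), and its call was lost without G2 (adjusted p = 0.138) or L1 (adjusted p = 0.0533).

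In the lists above with no lower gene, an unadjusted p under 0.05 in edgeR gave a lower gene only in lactose synthesis (Hk1), and DESeq2 called none lower in them.

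**Figure D3:**
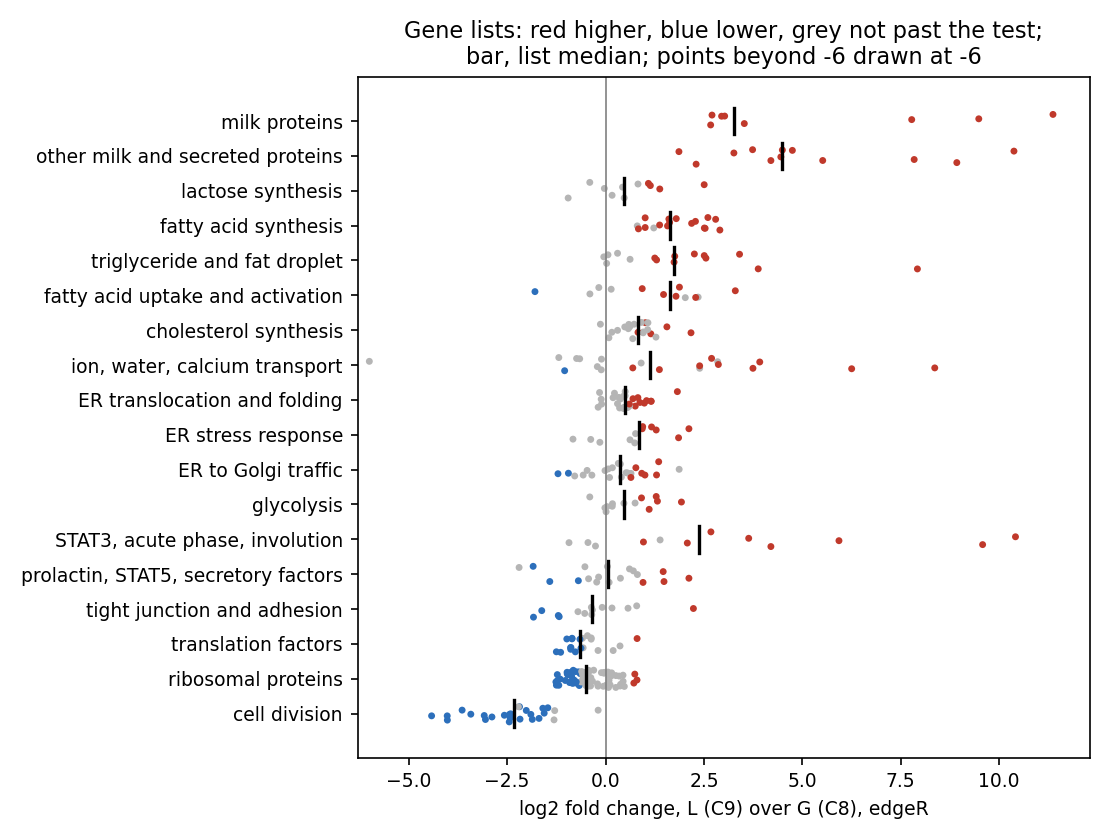
Log2 fold change of L (C9) over G (C8) from edgeR (x axis) for every tested gene of 18 lists (y axis). Points are genes, coloured red where higher and blue where lower past the test, the bar is the list median, and points under −6 are drawn at −6. All points of the milk protein and other secreted protein lists lie above 0, with medians of 3.28 and 4.47, and the cell division list has a median of −2.31.

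The regulators of secretory differentiation split. Of 18 tested genes 4 were higher and 3 lower, with a median of 0.07. With library totals only 2 were higher and 9 lower, and the median was −0.83, against −1.06 for all tested genes. Elf5, the ETS factor that specifies alveolar cells, was at 548 and 442 in G and 847 and 826 in L (0.95 ± 0.19, adjusted p = 0.005), but with library totals only its value was 0.06 and did not pass the test (adjusted p = 0.809). Ehf, another epithelial ETS factor, went the opposite way, at 422 and 537 in G and 190 and 130 in L (−1.42 ± 0.22, adjusted p = 0.000831). Id2, needed for alveolar differentiation, was at 193 and 164 in G and 556 and 333 in L. Foxs1 was at 45.3 and 42.7 in G and 9.49 and 11.6 in L. Cebpb rose by 1.46, a value that L2 carried (264 and 307 in G, 335 and 992 in L, and 0.32 with adjusted p = 0.307 without L2). Nfib, a partner of STAT5 at milk genes, fell by 0.69, and missed the test without G1 (adjusted p = 0.328) or G2 (adjusted p = 0.317). Stat5a itself stood at 59.3 and 59.8 in G and 56.9 and 50.9 in L (0.05 ± 0.22, adjusted p = 0.907, −0.85 with library totals only), and the prolactin receptor Prlr at 64.1 and 59 in G and 79 and 62.4 in L (0.38, adjusted p = 0.247).

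Markers of luminal progenitors showed no common direction, with 2 of 10 tested genes higher and 1 lower, or 2 and 7 with library totals only. Cd14, an endotoxin co-receptor, was at 166 and 283 in G and 613 and 870 in L (1.94 ± 0.28), and Tspan8 at 27.6 and 29.8 in G and 202 and 102 in L. The lower one was Creb5, at 123 and 148 in G and 72.7 and 50.9 in L, and it missed the test without G1, G2 or L2 (adjusted p = 0.0785, 0.263 and 0.0838). Kit, the receptor that marks progenitors, was at 73.1 and 91.9 in G and 47.4 and 48.6 in L (−0.58 ± 0.26, adjusted p = 0.149). Aldh1a3 overlapped between groups, at 27.4 and 43.8 in G and 133 and 11.6 in L (1.04 ± 0.58, adjusted p = 0.236). It passed the test without L2 (1.99, adjusted p = 0.00422) or without G2 (1.65, adjusted p = 0.0278). Of the luminal keratins Krt7 rose (27.7 and 37.7 in G, 101 and 55.5 in L), though not without L1 (adjusted p = 0.0733), and Krt8 and Krt18 did not pass the test, with values of −0.21 and −0.67 that became −0.96 and −1.28 and did pass without L2.

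With library totals only, the rises of Hk2, Slc2a1, Atp2c1, Srebf1, Ssr4, Tmed3, Slc7a5, Slc3a2, Slc1a4, Elf5, Cebpb, Krt7 and Fos no longer passed the test, with log2 values between 0.02 and 0.71. Kit, Krt8, Krt18, Pcna, Stat3 and Atf4 were lower past the test under that scaling. Kit (−0.78, edgeR adjusted p = 0.0471) and Krt18 (−0.89, adjusted p = 0.0187) also were with milk protein genes left out of the totals and no TMM. That setting gave 5 higher and 5 lower of 23 genes between endoplasmic reticulum and Golgi. Of 14 junction and adhesion genes it gave 1 higher and 7 lower, against 922 and 1785 of all 11858 genes.

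Cell division genes fell together, with 22 of 26 tested genes lower and a median of −2.31. None was higher, at an adjusted or an unadjusted p under 0.05 in edgeR or by DESeq2. Between 18 and 25 were lower when a single mouse was left out. Mki67, the proliferation marker, was at 175 and 164 in G and 22.1 and 13.9 in L (−3.08 ± 0.28, adjusted p = 1.57e-05), and Birc5, a subunit of the chromosomal passenger complex, at 178 and 169 in G and 22.1 and 4.63 in L. Rrm1, the large subunit of ribonucleotide reductase, was at 65.9 and 61.7 in G and 9.49 and 4.63 in L. Pcna, the sliding clamp of replication, did not pass the test, at 57.6 and 54.4 in G and 44.3 and 41.6 in L (−0.19, adjusted p = 0.637). The list's summed level was 2842 and 2809 in G and 762 and 296 in L. Basal cells went the same way, with 23 genes of this list lower in L, against 24.1% of all genes tested there.

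By fitted log2 fold change, the largest falls were those of genes with no UMI in either L sum. The fitted value has no fixed size for such genes. Their falls are therefore given as lower bounds, which do not rank them above falls of genes with counts in L. Rspo1, a secreted amplifier of WNT signalling (chr4:124986430-125009099), was at 306 and 366 in G and 0 in both L mice, which is at least 83.3-fold lower against a floor of 3 counts over the L group. In the basal cells of the L mice Rspo1 was at 9.44 and 13.2. Bex1 was at 49.9 and 63.6 in G, and Calca, the precursor of calcitonin and its related peptide, at 35 and 51.2, and these were at least 14 and 10.6-fold lower in L. The kinesin Cenpe and the abscission protein Cep55, which act in mitosis, were also at 0 in L, at least 17.5 and 5.7-fold lower. Nxf7, Bex4, Pcolce2, Prom2 and Tenm4 had G levels between 22.5 and 31.2 and bounds between 5.99 and 7.34-fold. In all, 58 of the 1086 lower genes had no UMI in either L sum and 388 had under 10, so the depth of the L sums limits how far such falls can be sized.

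Genes of STAT3 signalling, the acute phase and involution were higher in 8 of 12 tested cases and lower in none, at an unadjusted p or by DESeq2 either, with a median of 2.38. With library totals only 7 were higher and 2 lower. Lrg1 was at 12.3 and 14.2 in G and 569 and 821 in L (5.93 ± 0.26, adjusted p = 3.73e-08), and Socs3, the feedback inhibitor of STAT3, at 22.8 and 26.4 in G and 218 and 305 in L. The serum amyloid genes were uneven between the L mice, with Saa1 at 3.93 and 2.42 in G and 408 and 6843 in L, and Saa2 at 2.68 and 2.61 in G and 34.8 and 3307 in L. The log2 fold change of Saa2 was 9.58, and 3.80 without L2. Wfdc17, outside the list, was at 9.92 and 10.8 in G and 1426 and 11565 in L. In L1 the 3 cells with the most Saa1 UMIs held 96.1% of them, and in L2 36%. Igfbp5, a secreted growth factor binding protein of involution, was at 326 and 314 in G and 1024 and 1314 in L, whereas Stat3 itself was at 167 and 200 in G and 139 and 130 in L (−0.26, adjusted p = 0.383). In the basal cells of the L mice Socs3 stood at 2452 and 2573.

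Several of the same shifts were measured in alveolar progenitors (C10 in G with 89 and 126 cells, C11 in L with 142 and 89 cells), and the difference between the changes was tested in 1 model. Of 8798 genes 141 (1.6%) had a more positive change in differentiated cells and 171 (1.94%) a more negative one. Of the 17 tested fatty acid synthesis genes, 15 of them higher in differentiated cells, 7 were higher in progenitors. The change was more positive in differentiated cells for 8 of the 17 and more negative for 1, Olah. Fasn was at 33.8 and 29.4 in G progenitors and 24.9 and 20 in L progenitors, and its change was more positive in differentiated cells by 3.40 on the log2 scale (adjusted p = 4.71e-06). Scd1 was at 101 and 102 in G progenitors and 68.8 and 92.5 in L progenitors, with a difference of 2.87. Over all 8398 genes tested in progenitors, 16.0% were higher in L and 12.8% lower. For B4galt1 and Mfge8 the differences were 2.20 and 2.41. Csn2, in contrast, rose more in progenitors, by 4.99 from a lower start, a difference of −2.20 (adjusted p = 3.1e-05). That start was close to the level in basal cells. The median cell held 662 and 422 CPM of all UMIs in G progenitors, against 586 and 313 in G basal cells. In G progenitors 3 cells held 35.6% and 26.5% of the Csn2 UMIs. The part of this low start in the difference was not tested. Muc15 and Plin2, which did not pass the test in differentiated cells, rose in progenitors by 1.69 and 2.28, and the differences were −1.52 for each (adjusted p = 0.000968 and 0.0152). Ehf changed by −1.42 in differentiated cells and 0.08 in progenitors (difference −1.33, adjusted p = 0.00643). With TMM scaling Elf5 rose in both, by 0.95 and 1.86, and these changes did not differ past the test (adjusted p = 0.106). Against basal cells 8.3% of 13523 genes had a more positive change in differentiated cells and 10.3% a more negative one, and all 8 milk protein genes and 10 of the fatty acid synthesis genes were among the former, with 1 fatty acid synthesis gene among the latter. When all alveolar cells were pooled by stage, 2261 genes were higher and 2093 lower. The pools differed in make-up. In G they held 1926 and 1818 differentiated cells beside 89 and 126 progenitors. In L they held 42 and 47 differentiated cells beside 142 and 89 progenitors. The pooled values thus mix the stage with the share of progenitors.

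**Figure D4:**
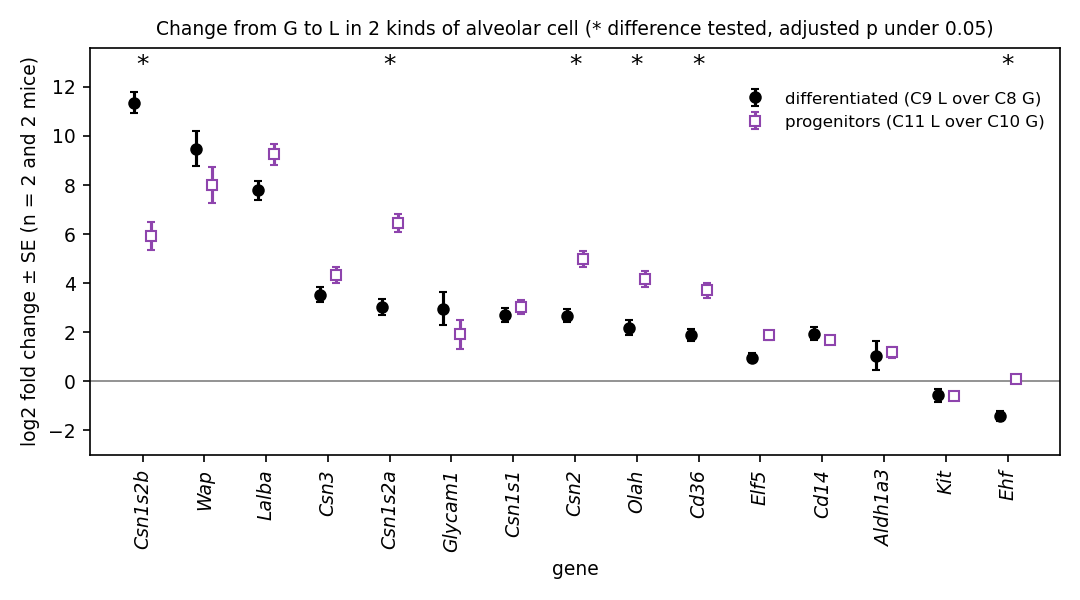
Log2 fold change from G to L with its SE (y axis) in differentiated cells (filled circles, C9 over C8) and progenitors (open squares, C11 over C10) for single genes (x axis), from 2 and 2 mice. A star marks a difference between the changes at an adjusted p under 0.05, as for Csn2 (2.67 and 4.99) and Ehf (−1.42 and 0.08).

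Transcripts of other cell types were also higher in the L cells. All 14 basal (myoepithelial) markers rose, with a median of 4.44 and a summed level of 289 and 273 in G and 7829 and 3258 in L, and none of their L levels exceeded that in the basal cells of the same mice, where the sum was 76681 and 69808. Acta2, the smooth muscle actin of these cells, was at 81.3 and 73.5 in G and 2997 and 1066 in L, against 26625 and 22835 in L basal cells. Basal UMIs per cell were counted over a separate set, Acta2, Krt14, Krt5, Krt17, Tagln, Mylk, Myh11, Cnn1 and Oxtr. Every L cell held at least 1 of them, as did 1583 of 1926 cells in G1 and 1330 of 1818 in G2. The 3 cells with the most held 48.4% of these UMIs in L1 and 16.9% in L2. Of 10 tested immune markers 6 rose, with summed levels of 137 and 176 in G and 813 and 243 in L, but only 2 without L1. Cd74 was at 56 and 63.5 in G and 360 and 85.6 in L. Of 19 genes of the dissociation stress response 13 rose, such as Fos (2036 and 1339 in G, 4215 and 3480 in L). All 19 rose in basal cells, against 24.1% of all genes tested there. In the alveolar cells 6 of these genes were higher and 4 lower with library totals only. Of 6 tested endothelial markers edgeR called none, with Cldn5 higher at an unadjusted p under 0.05 and by DESeq2, and of 7 fibroblast markers 1 rose (Dcn, 12 and 5.89 in G, 75.9 and 20.8 in L, not called without L1). The erythroid globins Hba-a1 and Hbb-bt were at 0 in both L sums, as were the adipocyte markers Adipoq and Plin1. The erythroid list as a whole had summed levels of 2.76 and 3.58 in G and 3.16 and 0 in L. At the depth of the L sums a count of 0 does not show absence. Plin4, the 1 adipocyte marker with enough counts to be tested, was higher in L (5.29, adjusted p = 0.00291), at 0.251 and 0.193 in G and 6.32 and 9.25 in L, and without any 1 of the mice it could not be tested. Of the 1098 genes called higher, 661 exceeded their level in the basal cells of both L mice, and of the 1086 called lower 747 exceeded it in both G mice. The matching share over all tested genes was not worked out, so no excess among the called genes can be read from these counts. Leaving out 11, 10, 3 and 0 cells of G1, G2, L1 and L2 with over 1% basal or 0.1% Cd74 UMIs, an alternative chosen after seeing the data, left 1086 genes higher and 1060 lower. Subtracting each library's own profile left 940 higher and 975 lower. The part of these other cell types in single gene results was not tested beyond these values.

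**Figure D5:**
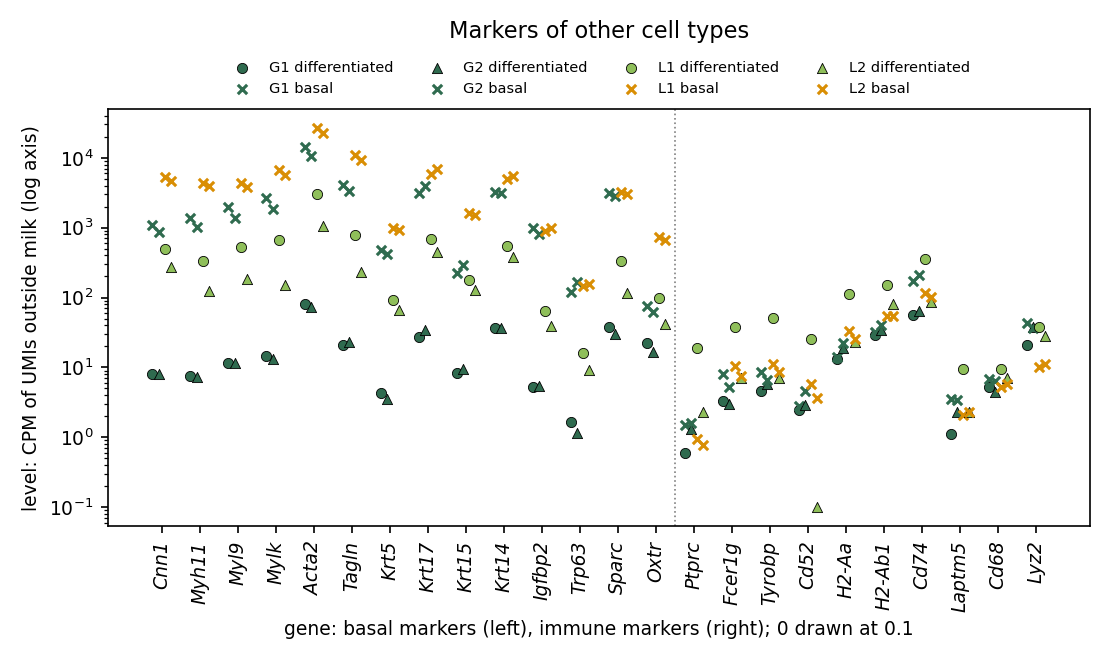
Level (CPM of UMIs outside milk, y axis, log scale, 0 drawn at 0.1) of basal markers (left of the dotted line) and immune markers (right), in differentiated alveolar cells (filled points) and basal cells (crosses) of each library. Acta2 lies at 2997 and 1066 in the L alveolar cells, above 81.3 and 73.5 in G and below 26625 and 22835 in the L basal cells.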

How the data were processed

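Single-cell RNA-seq libraries of 2 gestation and 2 lactation mice were analysed. Per the labels and the authors' methods, the deposited values are UMI counts per gene and barcode (10x Chromium), made by aligning reads to mm10; STAR is named in the submitters' processing notes and its version is not given in the sources used here. The authors' annotation also gives the mitochondrial fraction of each cell's UMIs, and clusters and the quality filter were taken from the same deposited table. The sort gated out doublets and the authors' annotation sets aside a doublet cluster; no doublet caller was run here. Library totals over all barcodes were 35711533 and 33507644 UMIs in G and 27658617 and 20586478 in L, with 2821 and 3005, and 5736 and 3583 passing cells. Of the barcodes of the G and L libraries 475 were seen in more than 1 library, with 0 among passing cells, and 713 of their cells had UMI totals unlike those in the annotation.

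Counts were summed per mouse and cluster, giving 2 samples a group, which are separate mice. Genes were filtered with filterByExpr (minimum count 10, minimum total 15) and tested with edgeR 4.0.16 (TMM, quasi-likelihood, R 4.3.3), with Benjamini-Hochberg adjustment at 0.05 over all tested genes. The biological coefficient of variation was 0.117, with 2 residual degrees of freedom. Changes were compared with those in progenitors (C10, C11) and basal cells (C13, C14) by an interaction term in 1 model. Alternatives were library totals without TMM, milk protein genes or genes above 1% left out of totals, other filters, DESeq2 1.42.0, glmTreat, equal depth, equal cell number, other cell sets and leaving out each mouse. Statistics were tested on simulated data, with 200 changed genes of at least 20 expected counts in the smaller L sum. The dispersion was 0.05 there, against 0.0138 fitted here. The test called 94% and 100% of true log2 changes of −2 and 2, but 20% and 26% of those of −1 and 1. Of the calls 6.25% were false. A gene that did not pass the test is therefore not shown to be unchanged. The members and gene lists were chosen with earlier results of these data known. Genes named are the 10 largest rises and falls among called genes whose higher group reached a mean level of 20, with no overlap and a level above the basal cells of the mice of that group, then list members past the test with the largest fold changes or another direction, and a short list of named alveolar genes (Wap, Csn2, Glycam1, Lalba, Aldh1a3, Cd14, Kit, Olah, Cd36, Elf5, Ehf). Stat5a, Prlr, Stat3, Atf4, Esr1, Pgr, Pcna, Plin2, Muc15, Krt8, Krt18 and the marker genes of other cell types were chosen after their values were seen. Some list members past the test are counted but not reported here. Gene positions are from GENCODE vM21 (GRCm38) and promoters from RefSeq (GRCm38.p6).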

Additional observations from a re-analysis of the deposited data

Results flagged for a closer look

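The change from gestation to lactation differed between kinds of cell, by edgeR's test of the difference itself. Against alveolar progenitors it was more positive in differentiated cells for 141 genes and more negative for 171, and against basal cells for 1123 and 1398 genes. The difference in log2 change against progenitors was 5.78 for Csn1s2b (adjusted p = 4.26e-05). It was −2.2 for Csn2 (adjusted p = 3.1e-05) and −3.27 for Csn1s2a (adjusted p = 1.16e-06), caseins whose progenitor levels began far lower. For Csn2 the G progenitor level was close to that in G basal cells, as given above. For Olah it was −1.82 (adjusted p = 0.0204), for Cd36 −1.64 (adjusted p = 0.00363) and for Ehf −1.33 (adjusted p = 0.00643). The causes of these differences were not tested.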

How the results depend on the processing

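The number of genes higher in L was 1098 and moved by over 1.5 times with library totals only (556), a minimum log2 fold change of 1 together with a stricter adjusted p of 0.01 in glmTreat (269), equal depth (705), equal cell number (690), all alveolar cells (2261) and genes above the basal level only (661), and ranged from 615 to 918 when a mouse was left out. The number lower was 1086 and moved with library totals only (5568), milk genes out of the totals without TMM (1785), the authors' expression filter (596), glmTreat (56), equal depth (442), equal cell number (433) and all alveolar cells (2093), and ranged from 286 to 964 without a mouse. Equal depth and equal cell number test fewer genes by construction, and the cause of the other shifts was not tested. Calls were 50.3% higher, 9.08% with library totals only, 34.1% without milk genes or TMM, 60.6% with the authors' filter, 61.5% and 61.4% at equal depth and cell number, 82.8% with glmTreat and 62.1% with DESeq2. The milk protein share differed by 35.5 points, by 29.6 as medians over cells, by 32.1 without cells of high UMI count and by 33.6 to 37.5 when a mouse was left out.

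The replicate numbers in the labels do not say what they pair, and the differences between replicates 1 and 2 correlated at 0.0027 across 11858 genes. With the number as a block 1091 genes were higher and 1123 lower, and Aldh1a3, Plin2 and Krt18 passed the test.

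The sign differed in progenitors for Ehf (0.079), Car2 (1.49), Atp2c1 (−0.20), Fasn (−0.26), Krt8 (0.76), Krt7 (−0.58), Cldn1 (0.53) and Scd1 (−0.13). Of these only Car2 and Krt8 passed the edgeR test in progenitors (adjusted p = 0.000597 and 0.0321). In all alveolar cells the sign differed for Acly (−0.095, adjusted p = 0.692). With library totals only it differed for Muc15 (−0.86), Rpl41 (−0.10), Eif4ebp1 (−0.10), Stat5a (−0.85), Rps29 (−0.15), mt-Co1 (−0.090) and Rpl36al (−0.17). Of these only Muc15 and Stat5a passed the test under that scaling (adjusted p = 0.00141 and 0.00578). The L sums hold under 10 counts for 5709 of the tested genes, which limits how falls can be sized.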

Other observations

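Genes of respiration and of the ribosome were measured in the same fit. Of 85 tested nuclear genes of oxidative phosphorylation 23 were higher in L and 5 lower, with 10 higher without G2 and none lower without G1 or without G2. With library totals only 2 were higher and 51 lower, and the median of 0.13 became −0.77. With milk protein genes left out of the totals and no TMM, 16 were higher and 11 lower, with a median of −0.07. Of 10 mitochondrially encoded genes 5 were higher and none lower, among them mt-Co1 (901 and 947 in G, 1527 and 1304 in L) and mt-Nd6 (29.2 and 30.4 in G, 98 and 76.3 in L), but only 2 without G2 or without L2, and 2 were higher and 2 lower with library totals only. With TMM none was lower at an unadjusted p in edgeR or by DESeq2, and the rise of mt-Co1 became −0.090 with library totals only. Of 78 ribosomal protein genes 27 were lower and 3 higher, with a median of −0.51. The lower count was 6 without G1 or G2 and 42 without L2, and the higher count was 8 without L1. Library totals only gave 0 higher and 72 lower, where 5568 of all 11858 genes were lower. Basal cells had 64 of these genes lower, against 24.1% of all genes tested there. The 3 higher ones, Rpl41, Rps29 and Rpl36al, missed the test without G2. With library totals only their values were −0.10, −0.15 and −0.17, none past the test (edgeR adjusted p = 0.686, 0.516 and 0.446).

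Markers of hormone-sensing luminal cells included 2 higher and 1 lower of 10 tested genes. Ly6a was at 16.4 and 13.8 in G and 224 and 284 in L, and S100a6 at 81.2 and 108 in G and 1344 and 412 in L. Areg, the growth factor amphiregulin, was at 17.2 and 23.8 in G and 0 in both L sums, and it missed the test without G2 (adjusted p = 0.0663). The receptors Esr1 (9.37 and 9.13 in G, 6.32 and 13.9 in L) and Pgr (1 and 1.35 in G, 3.16 and 0 in L) stayed low in every mouse.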
